A study of Mus musculus with 18 samples.

Results

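Freshly sorted tdTomato+ cells of the bone marrow (BM) were compared between 2-week-old mice in which Cre under the control of NG2 had removed both Pot1a alleles (Δ/Δ) and mice in which it had removed 1 allele (wt/Δ). The comparison took 6 of the 18 libraries of the series, 3 per genotype, and every gene of their count table, of which 14605 of 24421 gene symbols passed the filter on low counts. The samples were chosen by their titles and column names, with no measured value. The question was which genes differ in NG2-marked stromal cells that form in vivo without POT1a, next to the cultured cells that make up the other 12 libraries.

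All 6 libraries came from C57BL/6-labelled mice that carried NG2-cre and a tdTomato reporter behind a loxP-flanked stop. The wt/Δ controls carried the Cre, the reporter and 1 deleted Pot1a allele, so no sorted library came from cells with both alleles intact. The genotype field of the labels gave the floxed genotype for all 6, and the groups followed the titles. NG2-cre is a transgene driven by sequence of Cspg4, the gene of the pericyte proteoglycan NG2, and the reporter stays on in the descendants of any cell that once expressed Cre, so tdTomato marks a lineage and not 1 cell type. The RNA came from sorted tdTomato+ stromal cells of BM, and the isolation methods define such cells as negative for the blood markers CD45 and TER119 and the endothelial marker CD31, and positive for CD51 and PDGFRα. The legend for this experiment gives 3 mice per group, as many as there are libraries, though no label ties a library to a mouse, and p-values measure the spread between these libraries.

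POT1a is a subunit of shelterin, the protein complex that covers telomeres, where it holds the single-stranded overhang and keeps the ATR damage signal off. Mice have a second gene, Pot1b, while humans have 1 POT1. NG2-marked perivascular cells of the BM hold stem cell-like stromal cells, which secrete CXCL12 and stem cell factor for blood-forming cells and give rise to osteoblasts, the cells that lay down and mineralise bone matrix.

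The 6 libraries held between 28918757 and 49992698 counts, and between 15474 and 16593 genes had at least 1 count. Xist, the RNA of the inactive X chromosome, was counted in wt/Δ 2 and in all 3 Δ/Δ libraries, while the Y-linked genes Ddx3y, Eif2s3y, Kdm5d and Uty were counted in wt/Δ 1 and 3, so sex was unequal between the groups. Summed CPM, counts scaled to a common library size, of 10 megakaryocyte markers was 1850 in wt/Δ 2 and 1030 in Δ/Δ 3 and between 16.9 and 29.1 in the other 4 libraries. The common dispersion, the squared coefficient of variation beyond counting, was 0.14 in the sorted libraries and 0.0305 in the 12 cultured ones. On the leading principal component of the 500 most variable genes, which held 36.8% of their variance, the wt/Δ libraries lay at -44.6, 29.0 and -26.3 and the Δ/Δ libraries between 8.75 and 19.4, inside the spread of the controls.

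No gene passed edgeR's quasi-likelihood test at a Benjamini-Hochberg adjusted p of 0.05 (0 of 14605, 0%). The lowest adjusted p was 0.2403, and 1792 genes had an unadjusted p under 0.05, of which 735 were higher and 1057 lower in Δ/Δ cells. DESeq2, the tool of the study, called 463 genes in the same libraries, with 134 higher (0.917%) and 329 lower (2.25%). The excess of lower calls was not stable, since DESeq2 called 154 higher and 74 lower with sex as a term, 1104 higher and 852 lower in the 4 libraries with Xist, and 308 higher and 302 lower without wt/Δ 1. All 463 were genes whose 3 Δ/Δ libraries lay wholly above or below the 3 wt/Δ libraries, and over all genes tested 1373 (9.40%) lay wholly above and 1617 (11.1%) wholly below. With each library left out in turn DESeq2 called between 76 genes (without Δ/Δ 1) and 1989 genes (without wt/Δ 3). Of the 463 genes, 53 were called with any one library left out, 13 of them higher and 40 lower. Genes described below as higher or lower by DESeq2 are therefore calls of that tool only, and they were chosen after their values were seen. Values are CPM, folds are log2 differences of Δ/Δ minus wt/Δ from the edgeR fit with their standard error (SE), and adjusted p-values are named by tool. The median log2 fold change of all genes tested was -0.0066, against which the medians of gene lists can be read.

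Pot1a itself did not separate the groups. The gene lies at chr6:25743940-25809277 (GRCm38) and its counts cover the whole gene, so reads from exons left after deletion cannot be told apart from intact transcripts, and the counts do not test the deletion. It was measured at 26.9, 29.96 and 34.3 CPM in wt/Δ 1 to 3 and at 30.8, 19.1 and 31.0 CPM in Δ/Δ 1 to 3, from 852 to 1465 counts per library. Only Δ/Δ 2 lay below the controls. The log2 fold change was -0.17 (SE 0.24, edgeR adjusted p = 0.8245), the 95% interval ran from 60.8% to 130% of the control level, and the exact two-sided permutation test over the 6 libraries gave p = 0.7, where 0.1 is the smallest p that 3 against 3 allows. Pot1b was low but passed the filter on low counts, with 4.10, 2.02 and 1.44 CPM in wt/Δ and 1.68, 2.36 and 0.963 CPM in Δ/Δ cells. The groups overlapped.

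The CST complex binds the telomeric overhang after replication. Of the 10 genes of shelterin and CST, DESeq2 called 1 lower (10%, against 2.25% of all genes) and none higher. This was Acd, which encodes TPP1, the partner that recruits POT1 proteins to shelterin. Acd was at 46.6, 41.3 and 47.8 CPM in wt/Δ and at 31.9, 30.2 and 31.7 CPM in Δ/Δ cells. The groups did not overlap, with a log2 fold change of -0.53 (SE 0.16, DESeq2 adjusted p = 0.0476, edgeR 0.2714), but DESeq2 kept the call in only 1 of the 6 fits that left out a library. Terf2ip, which encodes the TRF2 partner RAP1, was at 38.9, 38.4 and 33.9 CPM in wt/Δ and 44.2, 43.4 and 47.6 CPM in Δ/Δ cells, all above the controls, at a log2 difference of 0.28 (SE 0.15) and with neither tool calling it. The duplex-binding subunits Terf1 (log2 -0.14, SE 0.20) and Terf2 (-0.22, SE 0.30), the linker Tinf2 (0.04, SE 0.26) and the CST genes Ctc1 (0.29, SE 0.24), Obfc1 (-0.08, SE 0.23) and Ten1 (-0.54, SE 0.25) overlapped between the groups.

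Among 13 genes of telomerase and telomere replication, Nhp2 was the 1 lower by DESeq2 (7.69%, against 2.25% of all genes). Nhp2 encodes a core protein of the H/ACA particles that hold telomerase RNA and guide RNA pseudouridylation. It was at 61.2, 60.1 and 67.9 CPM in wt/Δ and 32.9, 37.4 and 38.7 CPM in Δ/Δ cells, so that each deleted library held less than any control (log2 -0.80, SE 0.15, DESeq2 adjusted p = 0.00144, edgeR 0.2403). DESeq2 called it with any one library left out, but not with the trend on transcript length removed (log2 -0.58, adjusted p = 0.122) or without both libraries rich in megakaryocyte markers. Its fellow H/ACA genes Nop10 (log2 -0.49, SE 0.21) and Dkc1 (-0.19, SE 0.16) were not called.

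Within 5 Mb of Pot1a 46 genes were tested, and their median log2 fold change was 0.077. DESeq2 called 1 of them lower, where it called 2.25% of all genes lower. This was Ndufa5, a subunit of respiratory complex I described with that complex below. The 3 Δ/Δ libraries lay wholly above the controls for 4 of the 46 genes and wholly below for 4. Over all genes tested 9.40% lay wholly above and 11.1% wholly below, so these counts do not stand out.

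**Figure D1:**
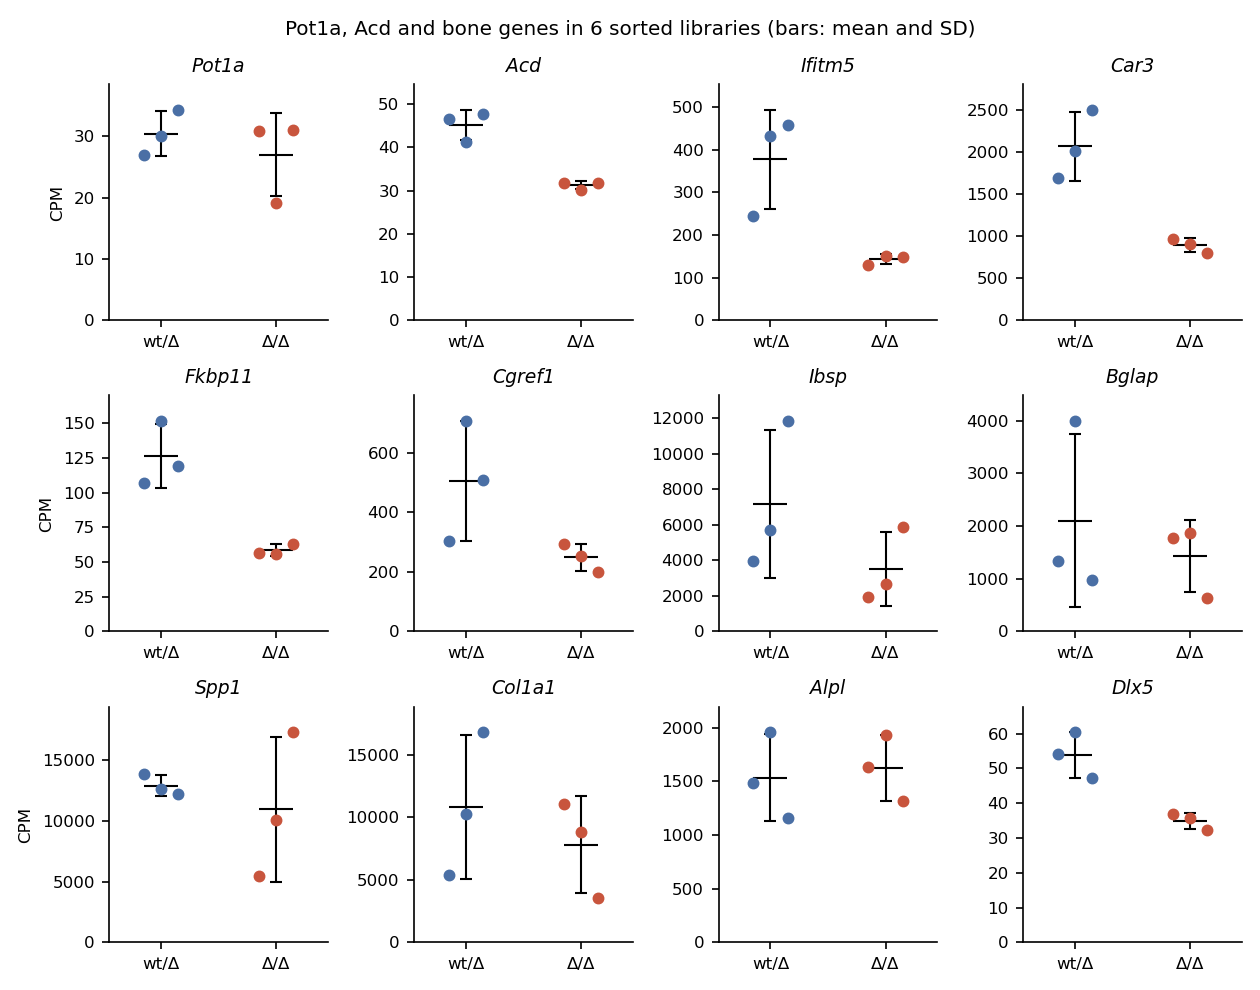
CPM of Pot1a, Acd and 10 bone genes in the 3 wt/Δ and 3 Δ/Δ libraries, each panel with its own axis from 0; points are libraries, lines and bars the mean and SD. The groups are apart for Acd, Ifitm5, Car3, Fkbp11, Cgref1 and Dlx5, and overlap for Pot1a, Ibsp, Bglap, Spp1, Col1a1 and Alpl.

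Bone genes were the next group. Of 40 tested genes of mature osteoblasts and osteocytes, DESeq2 called 4 lower (10%, against 2.25% of all genes) and none higher, 8 lay wholly below the controls (20%, against 11.1%) and 1 wholly above, and the median log2 fold change was -0.45. With each library left out the median stayed below 0, from -0.71 without wt/Δ 1 to -0.20 without wt/Δ 2, and the number called lower ranged from 3 to 9. Without wt/Δ 2 and Δ/Δ 3, the pair rich in megakaryocyte markers, the median was -0.19 and none was called. By library, the list's median deviation was highest in wt/Δ 2 (0.54) and lowest in Δ/Δ 3 (-0.46), and wt/Δ 1 (-0.17) lay below Δ/Δ 1 (-0.04) and 2 (-0.10). In bulk libraries, fewer osteoblasts and less RNA per osteoblast cannot be told apart.

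Ifitm5 was the most reduced of all genes called by DESeq2 at a mean log2 CPM of at least 3. It encodes BRIL, a membrane protein of osteoblasts in which mutation causes a form of brittle bone disease, and lies at chr7:140948958-140950243. It was at 244.8, 431.7 and 456.7 CPM in wt/Δ and at 130.1, 150.4 and 149.1 CPM in Δ/Δ cells. The deleted libraries lay close together below every control, with a log2 fold change of -1.40 (SE 0.25, DESeq2 adjusted p = 0.000153, edgeR 0.2403). Car3, carbonic anhydrase 3, was at 1686, 2010 and 2499 CPM in wt/Δ and at 965, 907 and 803 CPM in Δ/Δ cells. Every deleted library held less than the lowest control (log2 -1.21, SE 0.22, DESeq2 adjusted p = 1.72e-05). Fkbp11, a proline isomerase of the endoplasmic reticulum, was at 107, 152 and 119 CPM in wt/Δ and 56.3, 56.1 and 63.3 CPM in Δ/Δ cells (log2 -1.11, SE 0.18, DESeq2 adjusted p = 6.28e-05). DESeq2 called these 3 genes with any one library left out.

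The other 2 bone genes called by DESeq2 were less stable. Cgref1, a secreted calcium-binding protein, was at 302, 707 and 509 CPM in wt/Δ and 293, 253 and 199.7 CPM in Δ/Δ cells, where wt/Δ 1 and Δ/Δ 1 were nearly level (log2 -1.03, SE 0.32, DESeq2 adjusted p = 0.0379). Dlx5, a homeobox factor that acts in osteoblast differentiation, was at 54.0, 60.4 and 47.1 CPM in wt/Δ and at 36.8, 35.7 and 32.2 CPM in Δ/Δ cells (log2 -0.63, SE 0.17, DESeq2 adjusted p = 0.0272). DESeq2 kept Cgref1 in 2 and Dlx5 in 1 of the 6 fits that left out a library. Dlx5 was the 1 gene called among 17 osteoblast transcription factors (5.88%, against 2.25% of all genes). Sp7 (log2 -0.30, SE 0.20) and Runx2 (-0.18, SE 0.24), the master regulators of the lineage, were not called.

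The abundant bone matrix genes varied too much among the libraries for the groups to separate. Spp1, osteopontin, was at 13860, 12610 and 12160 CPM in wt/Δ and at 5446, 10030 and 17310 CPM in Δ/Δ cells, with Δ/Δ 3 above and the other deleted libraries below the controls (log2 -0.24, 95% interval -1.18 to 0.71). Ibsp, bone sialoprotein, was at 3952, 5693 and 11860 CPM in wt/Δ and 1963, 2670 and 5860 CPM in Δ/Δ cells, and only Δ/Δ 3 reached the range of the controls (log2 -1.04, interval -2.26 to 0.19). Col1a1, the main collagen of bone, was at 5383, 10280 and 16820 CPM in wt/Δ and 11080, 8785 and 3572 CPM in Δ/Δ cells (log2 -0.47, interval -1.67 to 0.73). Bglap, osteocalcin, was highest in wt/Δ 2 (3999 CPM) and lowest in Δ/Δ 3 (636 CPM), and the other 4 libraries lay between 974 and 1867 CPM. Alpl, the alkaline phosphatase of mineralising cells, was at 1485, 1961 and 1159 CPM in wt/Δ and at 1633, 1930 and 1313 CPM in Δ/Δ cells. Every deleted library lay within the range of the controls, with a log2 difference of 0.08 and an interval of -0.52 to 0.69.

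Markers of BM stroma were abundant, and neither stromal list held a called gene. All 12 stromal markers had a mean of over 1 CPM, and their sum ranged from 14300 to 40200 CPM in wt/Δ and from 23000 to 29800 CPM in Δ/Δ cells. Of 24 tested stromal markers and 28 niche factors DESeq2 called none, with medians of -0.07 and 0.17. Without wt/Δ 1 these medians were 0.33 and 0.45. In the 4 libraries with Xist, where wt/Δ 2 is the only control, they were 0.41 and 0.60. Cxcl12, the chemokine that retains blood stem cells, was at 29380, 12150 and 8613 CPM in wt/Δ and at 19620, 15500 and 13930 CPM in Δ/Δ cells. The deleted libraries all lay inside the range of the controls (log2 -0.03, interval -1.10 to 1.04).

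Vcam1, an adhesion molecule of niche cells, was the niche factor with the clearest separation. It was at 3480, 2822 and 1443 CPM in wt/Δ and at 3918, 5146 and 4680 CPM in Δ/Δ cells, all above the controls, but with a log2 difference of 0.83 (SE 0.34) neither tool called it (DESeq2 adjusted p = 0.119, edgeR 0.3844). Kitl, which encodes stem cell factor (log2 0.12, SE 0.34), Angpt1 (0.29, SE 0.31), Il7, a B cell growth factor (0.23, SE 0.23), Pdgfra (-0.13, SE 0.33) and Itgav, which encodes CD51 (-0.12, SE 0.45), all overlapped. Cspg4, the gene whose sequence drives the Cre, was low in every library, at 9.26, 22.4 and 16.2 CPM in wt/Δ and 12.0, 21.9 and 11.2 CPM in Δ/Δ cells. Nes, nestin, was at 6.47, 22.7 and 14.3 CPM in wt/Δ and 17.0, 25.9 and 25.8 CPM in Δ/Δ cells (log2 0.66, SE 0.43). Rgs4, a regulator of G protein signalling in pericytes, was at 493, 450 and 506.5 CPM in wt/Δ and 793, 635 and 674 CPM in Δ/Δ cells (log2 0.54, SE 0.18, DESeq2 adjusted p = 0.0481). It was the 1 of 24 mural genes called higher by DESeq2 (4.17%, against 0.917% of all genes). Of the mural genes 0 to 3 were called higher with each library left out. None was with the length trend removed or without both libraries rich in megakaryocyte markers.

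**Figure D2:**
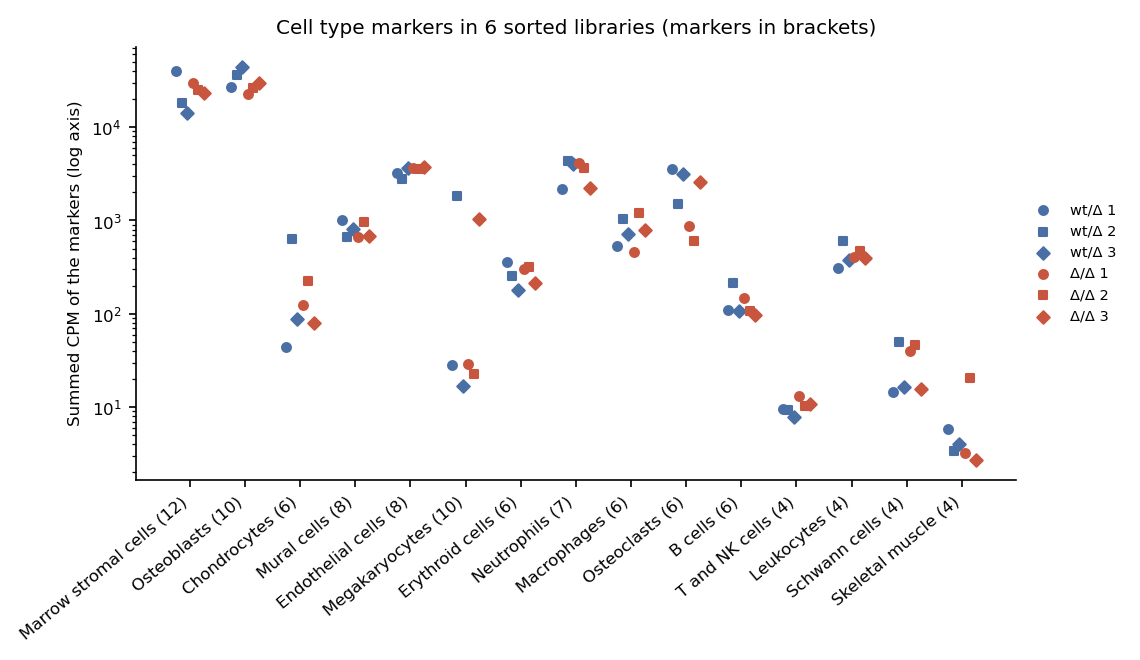
Summed CPM of marker lists of 15 cell types in the 6 sorted libraries, on a log axis, with the number of markers in brackets; each point is 1 library. Megakaryocyte markers reach 1850 in wt/Δ 2 and 1030 in Δ/Δ 3, and osteoclast markers are lowest in Δ/Δ 1 (874) and Δ/Δ 2 (602).

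RNA of marker genes of other cell types was present, although a gate negative for CD45, TER119 and CD31 would remove most such cells. Endothelial markers summed to between 2760 and 3760 CPM, neutrophil markers to between 2190 and 4340 CPM, and the 4 markers shared by leukocytes to between 308 and 597 CPM, and erythroid markers to between 182 and 355 CPM. Of the 6 erythroid markers the haemoglobin genes Hbb-bs and Hba-a1 were listed at 0 in all 6 libraries, while the other 4 were above 1 CPM. The part of such RNA in the gene differences was not tested.

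Endothelial genes were the cell type list with the most genes called higher. Of 31 genes DESeq2 called 3 higher (9.68%, against 0.917% of all genes) and none lower. Wholly above the controls lay 8 (25.8%, against 9.40%) and none below. The median log2 fold change was 0.36, from 0.24 to 0.43 with each library left out. The sum of the 8 endothelial markers was 3220, 2760 and 3660 CPM in wt/Δ and 3680, 3580 and 3760 CPM in Δ/Δ cells, with Δ/Δ 2 inside the range of the controls. Pecam1, the junction protein CD31, was at 126, 137 and 135 CPM in wt/Δ and at 207, 198 and 208 CPM in Δ/Δ cells (log2 0.62, SE 0.14, DESeq2 adjusted p = 0.00288, edgeR 0.2418). The endothelial guidance receptor Robo4 was at 133, 108 and 91.9 CPM against 208, 195 and 183 CPM (log2 0.81, SE 0.18, DESeq2 adjusted p = 0.0069). Mmrn2, a matrix protein of vessels, was at 274, 234 and 231 CPM against 406, 382 and 418 CPM (log2 0.71, SE 0.16, DESeq2 adjusted p = 0.00235). Each of the 3 genes was kept by DESeq2 in 3 of the 6 fits that left out a library, and none was called once the trend with transcript length was removed or without both libraries rich in megakaryocyte markers. Plvap, the most abundant endothelial marker at 1386 to 1812 CPM, differed by 0.00 (SE 0.20).

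Sele, E-selectin of activated and BM endothelium, was outside that list and showed a larger difference. Sele was at 106, 113 and 131 CPM in wt/Δ and 291, 279 and 216 CPM in Δ/Δ cells, every deleted library well above every control (log2 1.17, SE 0.18, DESeq2 adjusted p = 1.72e-05, edgeR 0.2403). DESeq2 called it with any one library left out and with the length trend removed.

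Osteoclast genes varied among libraries of both genotypes. Of 13 tested genes neither tool called any, and the median log2 fold change was -0.90, from -1.83 without Δ/Δ 3 to -0.42 without wt/Δ 3. Acp5, the acid phosphatase of osteoclasts, was at 1485, 479 and 1053 CPM in wt/Δ and at 278, 196 and 913 CPM in Δ/Δ cells. Ctsk, the collagen-degrading cathepsin K, was at 1880, 948 and 1776 CPM in wt/Δ and 553, 389 and 1526 CPM in Δ/Δ cells. Both genes were below every control in Δ/Δ 1 and 2, while Δ/Δ 3 lay within the range of the controls. Without Δ/Δ 3, or without both libraries rich in megakaryocyte markers, DESeq2 called 6 of the 13 lower. Over all genes these fits called 98 and 36 lower.

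Of the other blood cell lists, DESeq2 called 1 gene, Mrc1, the mannose receptor of macrophages and sinusoidal cells. Mrc1 was at 161, 169 and 152 CPM in wt/Δ and 210.3, 321 and 254 CPM in Δ/Δ cells (log2 0.71, SE 0.19, DESeq2 adjusted p = 0.0308). A pair of basophil proteases lay above every control without a call. Mcpt8 was at 0, 1.35 and 3.31 CPM in wt/Δ and at 23.6, 10.3 and 9.60 CPM in Δ/Δ cells, and Prss34 at 0, 6.85 and 15.7 CPM against 89.2, 38.8 and 31.8 CPM. Cpa3, a protease of mast cells, was highest in wt/Δ 2 at 12.3 CPM.

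The broadest difference was in genes of the mitochondrion. The respiratory chain moves electrons through complexes I to IV to drive ATP synthase, and most of its subunits are made from nuclear genes. Of 76 tested nuclear-encoded subunit genes, DESeq2 called 34 lower (44.7%, against 2.25% of all genes) and none higher, and 59 lay wholly below the controls (77.6%, against 11.1%). The median log2 fold change was -0.62 and stayed between -0.72 and -0.54 with each library left out, but the number called lower ranged from 8 without Δ/Δ 1 to 62 without wt/Δ 3. Without both libraries rich in megakaryocyte markers the median was -0.61 and DESeq2 called 3 lower. By library the median deviation was 0.45, 0.35 and 0.10 in wt/Δ 1 to 3 and -0.50, -0.19 and -0.22 in Δ/Δ 1 to 3, so the groups did not overlap and Δ/Δ 1 was lowest.

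Complex I, the entry point for electrons from NADH, gave many of the members. Ndufc1 was at 66.4, 59.5 and 72.5 CPM in wt/Δ and at 27.7, 38.6 and 36.0 CPM in Δ/Δ cells (log2 -0.96, SE 0.18, DESeq2 adjusted p = 0.00168, edgeR 0.2403). Ndufb7 was at 127, 98.2 and 115 CPM against 53.9, 62.4 and 64.4 CPM (log2 -0.91, SE 0.16, DESeq2 adjusted p = 0.000771). Both were called with any one library left out, while with the length trend removed only Ndufb7 was. Ndufa5, the gene near Pot1a at chr6:24518662-24527690, was at 63.5, 64.0 and 62.8 CPM in wt/Δ and at 30.2, 42.8 and 42.9 CPM in Δ/Δ cells (log2 -0.72, SE 0.18, DESeq2 adjusted p = 0.0265), a difference of the size seen over the list. DESeq2 kept Ndufa5 in only 1 of the 6 fits that left out a library. With the length trend removed it was not called (log2 -0.51, DESeq2 adjusted p = 0.2362).

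Subunits of the other complexes followed. Uqcr11 of complex III was at 179, 119 and 163 CPM in wt/Δ and at 64.9, 80.1 and 79.3 CPM in Δ/Δ cells, and had the largest log2 fold change among the 34 called members (-1.04, SE 0.20, DESeq2 adjusted p = 0.00125). Atp5g1, a ring subunit of ATP synthase, was at 139, 110 and 109 CPM against 50.5, 63.2 and 71.4 CPM (log2 -0.95, SE 0.19, DESeq2 adjusted p = 0.0025). Sdhd of complex II was at 303, 275 and 287 CPM against 194, 205 and 219 CPM (log2 -0.49, SE 0.15, DESeq2 adjusted p = 0.0414). Cox6a1 of complex IV was at 304, 273 and 199 CPM against 139, 169 and 147 CPM (log2 -0.78, SE 0.20, DESeq2 adjusted p = 0.0202). The most abundant member, Atp5b, the catalytic subunit of ATP synthase, was not called, with 1562, 1588 and 891 CPM in wt/Δ and 1151, 1281 and 1195 CPM in Δ/Δ cells.

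Proteins of the mitochondrial ribosome, which translates the subunits encoded in mitochondrial DNA, showed a like pattern. Of 76 genes DESeq2 called 26 lower (34.2%, against 2.25% of all genes) and none higher. Wholly below the controls lay 58 (76.3%, against 11.1%), and the median log2 fold change was -0.56. The number called lower ranged from 0 without Δ/Δ 2 to 52 without wt/Δ 3. Without both libraries rich in megakaryocyte markers the median was -0.55 and DESeq2 called 0. Mrpl42 was at 106, 116 and 144 CPM in wt/Δ and at 64.5, 70.4 and 68.4 CPM in Δ/Δ cells (log2 -0.85, SE 0.17, DESeq2 adjusted p = 0.00227). Mrpl28 was at 108, 116 and 112 CPM against 66.8, 59.7 and 73.3 CPM (log2 -0.75, SE 0.15, DESeq2 adjusted p = 0.00167). Cycs, cytochrome c, which carries electrons to complex IV and triggers apoptosis when released, was at 59.1, 48.4 and 66.2 CPM in wt/Δ and 27.6, 33.0 and 34.4 CPM in Δ/Δ cells (log2 -0.87, SE 0.18, DESeq2 adjusted p = 0.00569).

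Cytosolic ribosomal proteins depended on 1 control library. Of 82 genes DESeq2 called none and 9 lay wholly below the controls, where 11.1% of all genes did, although the median log2 fold change was -0.42 and 81 of the 82 folds were negative. Without wt/Δ 3 the median was -0.67 and DESeq2 called 48 lower, in a fit that called 1111 of all genes lower. In the 4 libraries with Xist, where wt/Δ 2 is the only control, the median was -0.74, and without wt/Δ 2 it was -0.22. By library the median deviation was 0.41, 0.60 and -0.47 in wt/Δ 1 to 3 and -0.50, 0.08 and -0.13 in Δ/Δ 1 to 3, so wt/Δ 3 stood with the deleted libraries. None of 13 regulators of mitochondrial biogenesis was called, and their median was 0.29.

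**Figure D3:**
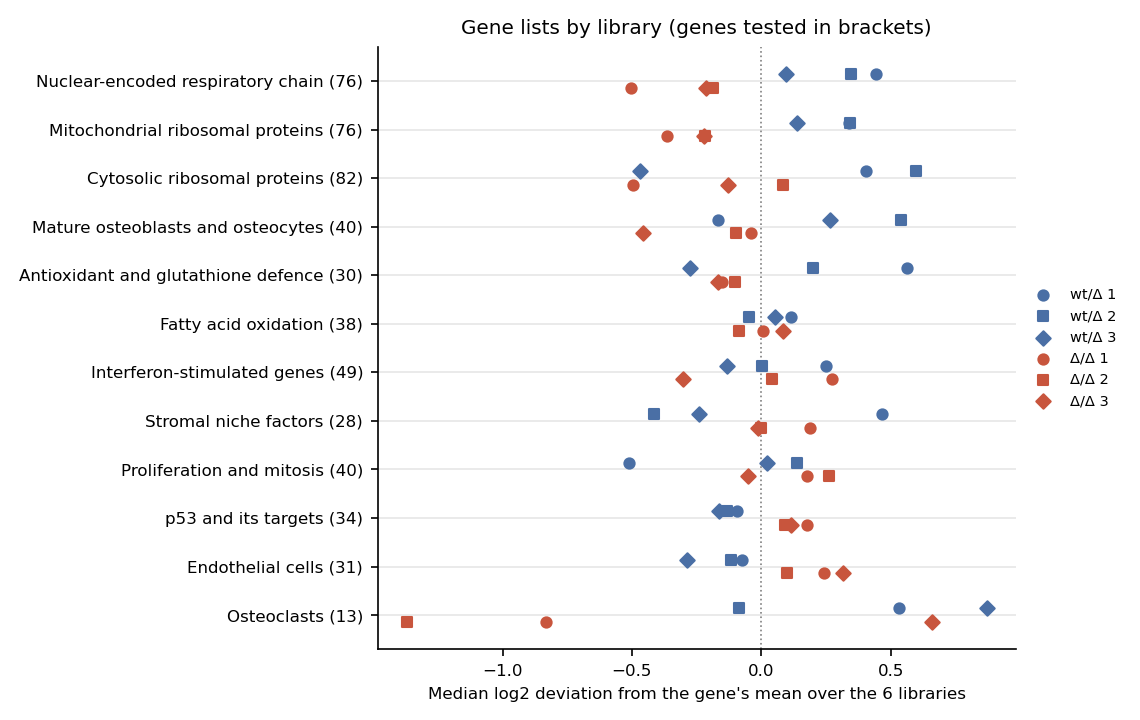
Median log2 deviation of 12 gene lists in each of the 6 sorted libraries, as the difference from each gene's mean over the libraries; blue points are wt/Δ and red points Δ/Δ. The respiratory chain, mitochondrial ribosome, p53 and endothelial lists separate the genotypes, while wt/Δ 3 lies with the deleted libraries for cytosolic ribosomal proteins and Δ/Δ 3 with the controls for osteoclast genes.

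Transcript length moved with these differences. Genes with a transcript of 500 to 1000 bases had a median log2 fold change of -0.25 and those of 1000 to 1500 bases -0.28, while those of 4000 to 6000 bases had a median of 0.20. Over 14510 genes with a length, Spearman's rho between length and log2 fold change was 0.34, as a description across genes that are not independent. Of the 328 genes lower by DESeq2 that had a length, 296 had a transcript of at most 2000 bases. The median length was 718.5 bases for the respiratory chain and 1150 bases for the mitochondrial ribosome genes, of which 44.7% and 34.2% were called lower. Of all genes of 500 to 1000 bases DESeq2 called 7.46% lower, and of those of 1000 to 1500 bases 6.37%. In the same bin of 500 to 1000 bases the library medians were 0.20, 0.21 and -0.02 in wt/Δ 1 to 3 and -0.14, -0.07 and -0.09 in Δ/Δ 1 to 3.

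With a smooth trend of each library on length removed, DESeq2 called 153 genes in all, 57 higher and 96 lower. The respiratory chain median was then -0.43 with 8 of 76 genes called lower, and the mitochondrial ribosome median -0.42 with 5 of 76. Uqcr11, Ndufb7 and Atp5g1 stayed called, with log2 folds of -0.89, -0.73 and -1.18. Among the bone genes Ifitm5 (-1.22), Car3 (-1.11) and Fkbp11 (-0.90) stayed called. What gave rise to the length trend was not tested.

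**Figure D4:**
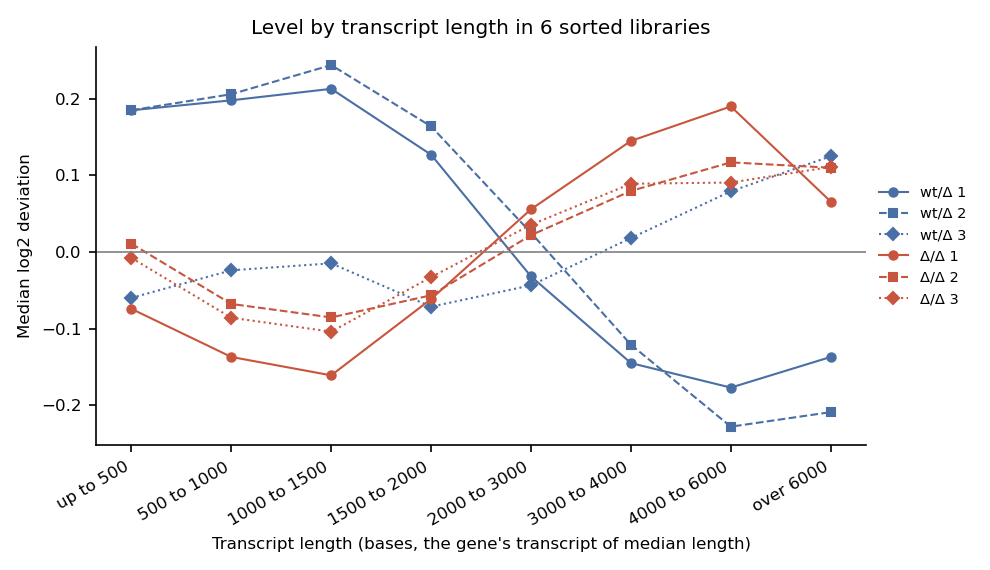
Median log2 deviation of genes in 8 bins of transcript length for each of the 6 sorted libraries; blue lines are wt/Δ and red lines Δ/Δ. wt/Δ 1 and 2 slope from 0.198 and 0.206 at 500 to 1000 bases to -0.177 and -0.228 at 4000 to 6000 bases, the Δ/Δ libraries slope the other way, and wt/Δ 3 runs with them.

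Promoters of respiratory chain genes often carry sites for NRF1 and for ETS factors such as GABP, the known activators of these genes. The letters TGCGCA, the core of the NRF1 site and the same on both strands, and CCGGAAG, an ETS site searched on both strands, were looked for in RefSeq promoters of GRCm38.p6 that run from 250 bases before to 50 bases after each start site. TGCGCA was in 1573 of 11531 promoters of tested genes (13.6%), in 17 of 64 respiratory chain promoters (26.6%) and in 10 of the 31 of genes lower by DESeq2 (32.3%). CCGGAAG was in 16.8%, 23.4% and 29.0% of the same sets. A match is a description of the letters and not a bound site. The first listed promoter of each gene was read. The stretches below come from the called genes with the largest folds that hold the letters before the start site of that promoter, with the motif in capitals, and they show the sequence context of the genes described above.
Ndufb4 (chr16:37654531-37654584, minus strand, NRF1 core): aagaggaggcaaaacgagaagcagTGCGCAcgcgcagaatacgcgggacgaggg
Cox6a1 (chr5:115349047-115349100, minus strand, NRF1 core): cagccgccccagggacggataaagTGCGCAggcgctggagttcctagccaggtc
Ndufa5 (chr6:24527688-24527741, minus strand, NRF1 core): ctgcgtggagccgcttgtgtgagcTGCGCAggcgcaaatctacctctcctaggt
Uqcr11 (chr10:80406857-80406911, minus strand, ETS site): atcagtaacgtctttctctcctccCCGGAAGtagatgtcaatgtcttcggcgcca
Sdhd (chr9:50603865-50603919, minus strand, ETS site on the opposite strand): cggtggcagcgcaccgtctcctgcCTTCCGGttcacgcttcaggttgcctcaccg

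Genes of the damage response held 2 calls. Telomeres that lose protection can activate p53. Of 34 genes of p53 and its targets DESeq2 called 1 higher (2.94%, against 0.917% of all genes) and none lower. Wholly above the controls lay 9 (26.5%, against 9.40%) and wholly below 2 (5.88%, against 11.1%). The median log2 fold change was 0.22. The gene called was Trp53inp1, a stress-induced nuclear protein, at 22.98, 22.2 and 42.9 CPM in wt/Δ and 52.9, 64.5 and 64.8 CPM in Δ/Δ cells (log2 1.05, SE 0.28, DESeq2 adjusted p = 0.0253), and DESeq2 kept it in 1 of the 6 fits that left out a library. Cdkn1a, the p53-induced inhibitor p21 that halts the cycle, was at 1284, 604 and 504 CPM in wt/Δ and 503.6, 855 and 749 CPM in Δ/Δ cells, with the highest and nearly the lowest value among the controls (log2 -0.18, SE 0.38). Of 39 genes of damage signalling and repair 7 lay wholly above the controls (17.9%), and DESeq2 called 1 higher (2.56%, against 0.917% of all genes). This was Xpc, a sensor of nucleotide damage, at 30.1, 42.3 and 32.9 CPM against 65.4, 49.0 and 58.9 CPM (log2 0.72, SE 0.20, DESeq2 adjusted p = 0.0428). The number called higher was 0 to 6 with each library left out. It was 0 with the length trend removed or without both libraries rich in megakaryocyte markers. None of 6 CDK inhibitor genes tested was called.

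Among 40 genes of proliferation DESeq2 called 1 higher (2.5%, against 0.917% of all genes), and 2 lay wholly above the controls (5%, against 9.40%). The number called higher was 0 to 4 with each library left out and 0 with the length trend removed. The gene called was Mki67, which encodes the antigen Ki-67 of cycling cells. Mki67 was at 30.4, 42.4 and 37.0 CPM in wt/Δ and 54.1, 63.8 and 73.4 CPM in Δ/Δ cells (log2 0.80, SE 0.19, DESeq2 adjusted p = 0.0187). The list median was 0.23, and 0.05 without wt/Δ 1, the library lowest for the list. Of 49 interferon-stimulated genes none was called, with a median of -0.01, and Ifitm3, the most abundant of them, was at 1291, 710 and 474 CPM in wt/Δ and 533.5, 570.5 and 477 CPM in Δ/Δ cells. Nfkbiz, an inhibitor-like regulator of NF-kB, was the 1 of 28 inflammatory genes called (3.57%, against 0.917% of all genes). Nfkbiz was at 267, 170.4 and 190.1 CPM against 423, 444 and 364 CPM (log2 0.97, SE 0.22, DESeq2 adjusted p = 0.00396). Of these 28 genes 0 to 2 were called higher with each library left out. With the length trend removed, or without both libraries rich in megakaryocyte markers, it was 0.

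Neither lipid list held a called gene. Of 35 genes of adipocyte transcription factors and lipid storage 23 folds were negative. Their median of -0.31 ranged from -0.46 without wt/Δ 2 to 0.20 without wt/Δ 1. Without both libraries rich in megakaryocyte markers DESeq2 called 7 of the 35 lower, in a fit that called 36 of all genes lower. Of the 19 genes of PPAR signalling, a list the study chose in its own libraries and therefore not independent evidence, DESeq2 called none, and the median log2 fold change was 0.003, from -0.23 without wt/Δ 3 to 0.44 without wt/Δ 1. Pparg, the master factor of adipocytes, was at 320.3, 331 and 236 CPM in wt/Δ and 331, 296 and 307 CPM in Δ/Δ cells (log2 0.08, SE 0.19, interval -0.36 to 0.51). Cd36, the fatty acid receptor, was at 713, 413 and 358 CPM against 602, 748 and 823 CPM, where only Δ/Δ 1 lay within the range of the controls (log2 0.55, SE 0.29, edgeR adjusted p = 0.4944).

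Of 38 genes of fatty acid oxidation DESeq2 called 2 higher (5.26%, against 0.917% of all genes) and 2 lower (5.26%, against 2.25%). With each library left out it called 0 to 3 higher and 0 to 2 lower. With the length trend removed 1 was called higher and 0 lower, and without both libraries rich in megakaryocyte markers 0 either way. Cpt1a, the carnitine transferase that admits fatty acids to the mitochondrion, was at 43.1, 53.4 and 56.8 CPM in wt/Δ and 83.0, 85.9 and 86.7 CPM in Δ/Δ cells, all above the controls (log2 0.74, SE 0.16, DESeq2 adjusted p = 0.0075). Acox3, a peroxisomal oxidase, was at 24.2, 23.3 and 29.3 CPM against 44.5, 37.0 and 40.9 CPM (log2 0.67, SE 0.18, DESeq2 adjusted p = 0.0287). The lower pair was Etfb, an electron carrier from acyl-CoA dehydrogenases (log2 -0.59, SE 0.17, DESeq2 adjusted p = 0.0428), and Eci1, an enoyl-CoA isomerase (-0.56, SE 0.16, adjusted p = 0.0428). Of 30 antioxidant genes 2 were lower by DESeq2 (6.67%, against 2.25% of all genes). These were Gpx7, a peroxidase of the endoplasmic reticulum, at 131, 147 and 131 CPM against 82.3, 86.3 and 82.8 CPM (log2 -0.70, SE 0.14, DESeq2 adjusted p = 0.00111), and Prdx4 (log2 -0.68, SE 0.20, adjusted p = 0.0498). Gpx7 was called with any one library left out. The number of antioxidant genes called lower was 1 without wt/Δ 1, 15 without wt/Δ 3, and 0 with the length trend removed or without both libraries rich in megakaryocyte markers.

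Genes of the receptor for the calcitonin gene-related peptide differed in opposite directions. Calcrl, the receptor for this vasodilator peptide and for adrenomedullin, was at 59.5, 86.5 and 45.6 CPM in wt/Δ and 143, 150.3 and 146 CPM in Δ/Δ cells (log2 1.20, SE 0.24, DESeq2 adjusted p = 0.0012, edgeR 0.2403). Ramp1, the accessory protein that makes it bind the calcitonin gene-related peptide, was at 96.0, 103 and 105 CPM against 38.5, 39.2 and 60.9 CPM (log2 -1.13, SE 0.21, DESeq2 adjusted p = 0.000956). For neither gene did the groups overlap, and DESeq2 called both with any one library left out. With the length trend removed Ramp1 stayed called (DESeq2 adjusted p = 0.0245) and Calcrl did not (0.104).

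Further genes with large folds were called with any one library left out. Gal, the neuropeptide galanin, was at 31.3, 37.2 and 42.6 CPM in wt/Δ and at 14.7, 13.7 and 14.0 CPM in Δ/Δ cells (log2 -1.39, SE 0.19) and had the lowest DESeq2 adjusted p of all genes, 6.19e-07. Nme1, a nucleoside diphosphate kinase, was at 238, 264 and 257 CPM against 107, 132 and 123 CPM (log2 -1.07, SE 0.16, DESeq2 adjusted p = 2.27e-06). Ugcg, which makes glucosylceramide, was at 120.0, 140.3 and 156 CPM against 271, 322 and 320 CPM (log2 1.13, SE 0.17, DESeq2 adjusted p = 9.99e-06). Tgfbr2, a receptor chain for TGF-β, was at 159, 144 and 169 CPM against 279.5, 272 and 261 CPM (log2 0.79, SE 0.15, DESeq2 adjusted p = 0.000375). It was the 1 gene called among 51 of the TGF-β and BMP pathway (1.96%, against 0.917% of all genes).

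Kdm6a, an X-linked histone demethylase known to escape X inactivation, was at 19.1, 28.5 and 23.8 CPM in wt/Δ and 58.6, 51.4 and 52.9 CPM in Δ/Δ cells (log2 1.19, SE 0.20, DESeq2 adjusted p = 7.07e-05). In the 4 libraries with Xist alone the log2 difference was 0.93, with wt/Δ 2 as the only control. Sex and genotype cannot be told apart for wt/Δ 1 and 3.

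Only genes called by DESeq2 at a mean log2 CPM of at least 3 were ranked by fold. The remaining genes of the 10 largest folds in each direction were kept in 1 to 6 of the fits that left out a library. Hoxb2, a homeobox gene, was at 29.0, 39.5 and 29.2 CPM in wt/Δ and 14.6, 13.2 and 13.6 CPM in Δ/Δ cells (log2 -1.24, SE 0.20, DESeq2 adjusted p = 2.43e-05). It was called in 5 of the 6 fits, and was the 1 of 26 Hox genes called (3.85%, against 2.25% of all genes). Tmem37 (log2 -1.06, SE 0.23) was kept in 4 of 6 such fits and 2310039H08Rik (-1.04, SE 0.20) in all 6. On the higher side Aldh1a3, a retinoic acid-making dehydrogenase, was at 11.8, 12.8 and 9.49 CPM against 23.8, 26.3 and 30.1 CPM (log2 1.23, SE 0.21) and was kept in 5. Itgad, an integrin chain of macrophages (log2 1.63, SE 0.56), and Rgs16 (1.11, SE 0.34) were kept in 1, Txnip, an inhibitor of thioredoxin (1.25, SE 0.42), in 2, Rhbdf2 (1.19, SE 0.28) in 3 and the organic anion carrier Slco2b1 (1.29, SE 0.35) in 4.

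Among patterning and signalling lists, Shox2, a limb homeobox factor, was the 1 of 18 limb genes called lower by DESeq2 (5.56%, against 2.25% of all genes). Shox2 was at 47.7, 37.1 and 39.9 CPM in wt/Δ and 24.1, 26.2 and 22.97 CPM in Δ/Δ cells (log2 -0.77, SE 0.18, DESeq2 adjusted p = 0.00822). Of the limb genes 0 to 2 were called lower with each library left out. None was with the length trend removed or without both libraries rich in megakaryocyte markers. Of 51 Wnt pathway genes 2 were called higher (3.92%, against 0.917% of all genes). They were the receptor Fzd6 (log2 1.03, SE 0.31) and the scaffold Axin1 (0.87, SE 0.20). Wwtr1, which encodes the YAP partner TAZ (log2 0.60, SE 0.15), and Timp3, an inhibitor of matrix proteases (0.63, SE 0.19), were also higher by DESeq2. Fdps, a synthase of the cholesterol pathway, was the 1 of 23 such genes called lower (4.35%, against 2.25% of all genes, log2 -0.95, SE 0.24). Of the cholesterol genes 0 to 3 were called lower with each library left out. None was with the length trend removed or without both libraries rich in megakaryocyte markers. No member of the Hedgehog, Notch, FGF or insulin-like growth factor lists was called.

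The sorted cells were last set against the most like experiment of the series, cells cultured for 4 weeks after Cre vesicles. Those 6 libraries were of CD51+ PDGFRα+ cells grown from BM of mice aged 4 to 6 months, 3 Δ/Δ and 3 wt/wt. Source, age, route of Cre and the controls' genotype all differ from the sorted experiment and cannot be told apart. In 1 edgeR fit over all 18 libraries, the log2 fold change of sorted cells minus that of week 4 was tested for 14832 genes, and 587 passed at an adjusted p of 0.05 (3.96%), 297 above and 290 below 0. In 442 of the 587 the week 4 difference was the larger in size and in 145 the sorted one. In 424 the signs were opposite, counted without regard to the SE of either fold. That fit shares 1 spread per gene between experiments of unlike dispersion (0.14 sorted, 0.0305 cultured). Its SEs and p-values therefore do not measure the spread of the sorted libraries alone. For the sorted Pot1a fold the SE was 0.17 here and 0.24 in the sorted fit. With the spread estimated for each experiment on its own (limma) 367 genes passed. CPM below are on the scale of that joint fit.

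**Figure D5:**
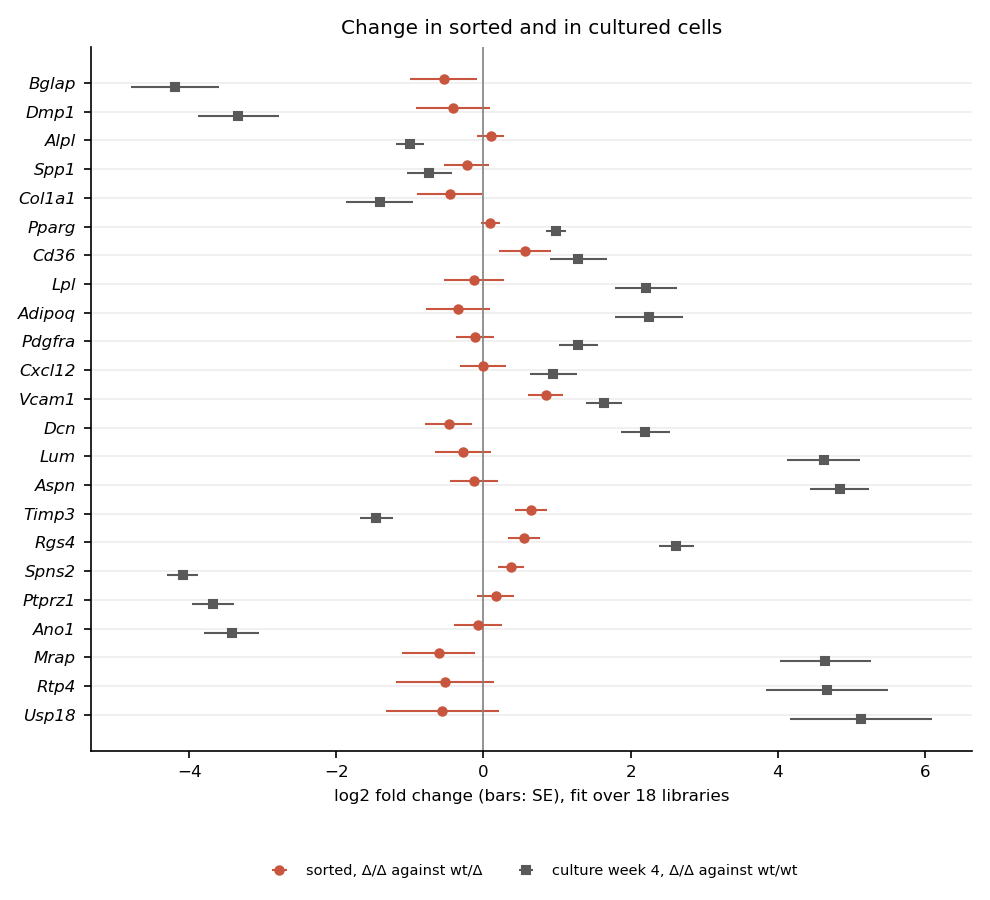
Log2 fold change with SE of 23 genes in sorted cells (red circles, Δ/Δ against wt/Δ) and in culture at week 4 (grey squares, Δ/Δ against wt/wt), from 1 fit over 18 libraries. The sorted folds lie between -0.61 and 0.85, while those of culture run from -4.20 for Bglap to 5.13 for Usp18. The SEs rest on 1 spread per gene shared by both experiments.

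Of 40 genes of mature osteoblasts and osteocytes 13 passed this test (32.5%, against 3.96% of all genes), each with a more negative fold in culture. The list medians were -0.44 in sorted cells and -1.28 at week 4. Alpl was at 3075, 3597 and 3201 CPM in wt/wt and 1775, 1414 and 1751 CPM in Δ/Δ cultures (log2 -0.999, SE 0.19), against 0.10 (SE 0.18) in sorted cells, a difference of 1.10 (SE 0.26, edgeR adjusted p = 0.0251). Dmp1, a matrix protein of osteocytes, was at 236, 340 and 233 CPM in wt/wt and 45.5, 22.1 and 13.1 CPM in Δ/Δ cultures (log2 -3.33) against -0.41 in sorted cells (difference 2.92, SE 0.73, adjusted p = 0.0329). Bglap was at 10.3, 9.18 and 8.16 CPM in wt/wt and at 0.912, 0.247 and 0.375 CPM in Δ/Δ cultures, far under the 628 to 3958 CPM of sorted cells (difference 3.66, SE 0.74, adjusted p = 0.00951). Spp1 (difference 0.51, SE 0.44), Col1a1 (0.95, SE 0.63) and Ibsp (2.33, SE 0.66, adjusted p = 0.0582) did not pass.

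The respiratory chain genes had a median of -0.60 in sorted cells and -0.07 at week 4. Of the 76 genes 2 passed the test of the difference (2.63%, against 3.96% of all genes). With the spread estimated for each experiment on its own (limma) none did, so the difference between the medians was not borne out gene by gene.

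Some lipid, stromal and proteoglycan genes differed in the other direction. Of 36 adipocyte and lipid storage genes 7 had a more positive fold in culture and 1 a more negative one, of 24 stromal markers 5 and 2, and of 13 small proteoglycans 3 and 0, while the rest did not pass. These were 22.2%, 29.2% and 23.1% of the lists, against 3.96% of all genes. With the spread estimated for each experiment on its own (limma) the counts were 2 and 1, 3 and 1, and 3 and 0. Pparg was at 76.0, 70.4 and 57.8 CPM in wt/wt and 134, 137 and 133 CPM in Δ/Δ cultures (log2 0.99, SE 0.13) against 0.09 (SE 0.13) in sorted cells (difference -0.90, SE 0.18, edgeR adjusted p = 0.0105). Lpl, which releases fatty acids from circulating lipoproteins, was at 244, 278 and 264 CPM against 1027, 1372 and 1239 CPM in culture (difference -2.34, SE 0.58, adjusted p = 0.0315). Adipoq, adiponectin (difference -2.60, SE 0.63, limma adjusted p = 0.0544), Pdgfra (-1.41, SE 0.37, limma adjusted p = 0.0815) and the proteoglycans Dcn (-2.67, SE 0.46), Lum (-4.90, SE 0.62) and Aspn (-4.97, SE 0.50) also passed the edgeR test. Cd36 (-0.72, SE 0.52), Cxcl12 (-0.96, SE 0.45) and Vcam1 (-0.80, SE 0.34) did not, and Pot1a, at 38.6, 33.5 and 33.3 CPM in wt/wt and 47.7, 46.3 and 42.3 CPM in Δ/Δ cultures, did not either (difference -0.53, SE 0.24, adjusted p = 0.2354).

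Timp3 and Rgs4, both higher by DESeq2 in sorted cells, passed with opposite signs. Timp3 was at 6107, 4604 and 7945 CPM in wt/wt and 2755, 2330 and 1701 CPM in Δ/Δ cultures (log2 -1.46, SE 0.22) against 0.64 (SE 0.22) in sorted cells (difference 2.10, SE 0.31, edgeR adjusted p = 0.000897). Rgs4 was at 10.4, 7.13 and 8.73 CPM against 57.3, 59.4 and 44.0 CPM in culture (log2 2.62, SE 0.24), a difference of -2.07 (SE 0.31, adjusted p = 0.00101).

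The 4 genes with the most negative difference at a mean log2 CPM of at least 3 were Usp18, Mrap, Rtp4 and Aspn. The interferon-stimulated genes Usp18, which removes ISG15 from proteins, and Rtp4 were at 2.36, 0.624 and 1.28 CPM and at 2.90, 1.34 and 1.57 CPM in wt/wt cultures, and at 102, 4.55 and 34.5 CPM and at 93.3, 6.92 and 41.0 CPM in Δ/Δ cultures. Of 49 interferon-stimulated genes 11 passed (22.4%, against 3.96% of all genes), each with a higher fold in culture. But with the spread estimated for each experiment on its own none did, and Usp18 and Rtp4 had adjusted p = 0.2472 and 0.1672 (limma). Mrap, an accessory protein of melanocortin receptors, was at 1.602, 1.02 and 0.606 CPM against 30.1, 21.3 and 25.2 CPM in culture (difference -5.25, SE 0.79). At the other end stood Spns2, a sphingosine-1-phosphate exporter, at 45.5, 39.95 and 33.6 CPM in wt/wt and 2.53, 1.68 and 2.64 CPM in Δ/Δ cultures (difference 4.46, SE 0.27, edgeR adjusted p = 1.73e-07), with Ptprz1, a receptor phosphatase (3.84, SE 0.38), and the chloride channel Ano1 (3.35, SE 0.49).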

How the data were processed

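RNA of 6 sorted and 12 cultured samples was copied to cDNA with SMART-Seq v4 and tagged with Nextera XT, which do not mark strand, so antisense and overlapping genes cannot be told apart. The authors mapped reads to mm10 with HISAT2 2.0.4 and deposited whole-number counts per gene from featureCounts 1.6.3. Groups followed the sample titles, and columns were joined by name.

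Low genes of the sorted libraries were removed with filterByExpr (minimum count 10), TMM set the library scaling, and the test was that of edgeR 4.0.16 (quasi-likelihood, Benjamini-Hochberg threshold 0.05, R 4.3.3). DESeq2 1.42.0 was run on the same filtered counts, and gave no adjusted p for 5680 low genes. The difference from culture was fitted over all 18 libraries, with limma 3.58.1 as the alternative that estimates the spread of each experiment. Transcript length was that of the gene's transcript of median length in the annotation. Symbols were matched to RefSeq for 23204 genes directly and 1096 by synonym. Promoters were RefSeq windows of GRCm38.p6. Scripts were tested on simulated data.

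The members and gene lists were chosen with earlier results of these data known. Genes named were Pot1a and shelterin, genes the study names, and cell type markers. Also named were the 10 largest folds of each direction among called genes with no overlap between the groups and a mean log2 CPM of at least 3. From each list up to 6 called and 3 abundant uncalled members were named. Calls for naming were those of DESeq2, because edgeR made none, and other genes were named after their values were seen. Alternatives were scaling, filter, threshold, block, sex, length trend and each library left out.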

Additional observations from a re-analysis of the deposited data

Results flagged for a closer look

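The difference between the change in sorted cells and that in culture at week 4 passed the edgeR test for 587 genes. Among the genes named, the sorted minus week 4 difference in log2 fold change was positive for Alpl (1.10), Dmp1 (2.92), Timp3 (2.10), Spns2 (4.46), Ptprz1 (3.84), Bglap (3.66) and Ano1 (3.35). It was negative for Pparg (-0.895), Pdgfra (-1.41), Adipoq (-2.60), Lpl (-2.34), Dcn (-2.67), Lum (-4.90), Rgs4 (-2.07), Usp18 (-5.69), Mrap (-5.25), Rtp4 (-5.19) and Aspn (-4.97). With the spread estimated for each experiment by limma, Usp18, Rtp4, Pdgfra and Adipoq had adjusted p = 0.2472, 0.1672, 0.0815 and 0.0544. Groups of 3 libraries are too small for a test of single outlying samples.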

How the results depend on the processing

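The edgeR count of 0 genes was 463 by DESeq2, between 0 and 4 with each library left out (4 without wt/Δ 2) and 2 without both libraries rich in megakaryocyte markers, and 0 under the other settings tried. The DESeq2 count of 463 was 66 without those libraries, 1956 in the 4 libraries with Xist, 153 with the length trend removed, 228 with sex as a term, and between 76 and 1989 with each library left out (610 without wt/Δ 1, 80 without Δ/Δ 2, 125 without Δ/Δ 3). The count of 587 genes that differ from culture was 367 with the spread of each experiment, 1025 and 224 at thresholds of 0.1 and 0.01, and between 331 (without wt/wt week 4 replicate 2) and 1560 (without wt/Δ 3) with each library left out. Pot1a ranged from -0.284 to 0.014 (without Δ/Δ 2) and was called under none of the settings. Of 1614 values of 101 named genes under alternatives 86 changed sign. Labelled as reversed was 1 of the 1614, Cdh5 with the length trend removed (-0.007, against 0.206). Of 975 list medians under alternatives 861 moved by less than the spread and 99 changed sign. The cause was not tested. The alternatives by Xist, megakaryocyte markers, length and experiment spread were chosen after seeing the data.

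With the replicate number as a block the edgeR count was 0, the DESeq2 count 197, the count that differs from culture 652 and Pot1a -0.20. The deviations of same-numbered libraries correlated at 0.0623, 0.074 and 0.025, and nothing in the labels pairs them.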
